A study of Mus musculus with 50 samples.

Results

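The AMPA receptor genes described here are the pore-forming subunit genes *Gria1*, *Gria2*, *Gria3* and *Gria4*, the TARP genes *Cacng2*, *Cacng3* and *Cacng8*, and the cornichon genes *Cnih2* and *Cnih3*, 9 of the 55487 genes in the count files. They were chosen by name and matched to the files through the GENCODE vM21 annotation of GRCm38, and all 9 were among the 16330 protein-coding genes that passed the filter on low counts. RNA was sequenced from bilateral frontal cortex homogenate of wild-type (WT) mice and of mice heterozygous for the *Setd1a* tm1d loss-of-function allele (*Setd1a*+/-, Het). The labels give the strain as C57BL/6NTac and the ages as E14, E18, P7, P35 and P70, with 5 libraries per genotype at each age and 50 in all. The methods of the study give a mixed C57BL/6NTac and C57BL/6J background, male mice, embryos collected later on the labelled embryonic days, and littermates at the postnatal ages. They describe the tissue taken from embryos as frontal brain regions and the postnatal tissue as frontal cortex. Comparisons of embryonic with postnatal ages therefore also span a difference in dissection. The labels only number the replicates, and the methods give 5 subjects per genotype and age.

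AMPA receptors are the glutamate-gated channels that carry most fast excitatory transmission in the cortex, and each is a tetramer of the subunits that the *Gria* genes encode. TARPs, the transmembrane proteins encoded by *Cacng2* (stargazin), *Cacng3* and *Cacng8*, bind the tetramer, bring it to synapses and slow its closing. Cornichon proteins, encoded by *Cnih2* and *Cnih3*, help the receptor leave the endoplasmic reticulum and remain with it at the cell surface. The subunit make-up of cortical receptors is known to change as excitatory synapses mature after birth.

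Total counts ran from 35507165 to 43907318 per library, so that even *Cacng3* in the library with least of it rested on 90 counts. *Setd1a* itself was at 72.2 ± 2.44 CPM (counts scaled to the library total times its TMM factor; SD, n = 5) in WT and 80.8 ± 3.27 CPM (SD, n = 5) in Het cortex at P7, and the means ran from 72.2 to 127 CPM in WT and from 80.8 to 137 CPM in Het over the 5 ages. The Het mean was the lower only at P70, by less than the SD of either group. The gene count is summed over all exons and counts of single exons were not examined, so it does not check the labels. *Xist*, a gene of female cells, had 60159 counts in WT replicate 5 at E14 and 55644 in WT replicate 2 at E18, against at most 27 in the other 48 libraries, although the methods describe the mice as male. WT replicate 2 at P7 stood apart from the rest of its age and is taken up beside the results that rest on it. All 7 listed markers of cortical excitatory neurons were detected in each of the 10 groups, and none of the 5 *Hox* genes listed for hindbrain reached a mean of 1 CPM in any group, although WT replicate 2 at P7 held 7.95 CPM of them in sum, against at most 0.91 CPM in any other library. Choroid plexus markers, in sum, ran from 0.53 to 378 CPM in WT and from 0.96 to 445 CPM in Het at E14, and at E18 they stood at 228 and 183 CPM in WT replicates 3 and 4 against at most 7.51 CPM in the other libraries of that age. Striatal neuron markers ran from 307 to 1087 CPM in WT and from 475 to 1248 CPM in Het at P70. RNA integrity was lower in Het than in WT libraries at E18 in the sample metadata of the study.

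The 4 subunit genes share a short stretch of the pore loop, shown here because the codon in capitals is the glutamine codon whose editing in *Gria2* mRNA, by the enzyme encoded by *Adarb1*, makes receptors that hold its product nearly impermeable to calcium, which is why the share of *Gria2* among the subunits is followed below.
Gria1: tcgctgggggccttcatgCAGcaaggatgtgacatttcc
Gria2: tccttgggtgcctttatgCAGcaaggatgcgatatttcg
Gria3: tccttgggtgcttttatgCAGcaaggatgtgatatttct
Gria4: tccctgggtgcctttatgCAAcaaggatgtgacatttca
These are the coding strands of 39 bases within 1 exon of the longest coding transcript, 5′ to 3′, at chr11:57243076-57243114 (plus), chr3:80706893-80706931 (minus), chrX:41610247-41610285 (plus) and chr9:4464119-4464157 (minus) of GRCm38. *Gria1*, *Gria2* and *Gria3* have CAG and *Gria4* has CAA, both of which encode glutamine. Of the 39 bases, 36 are shared with *Gria2* in *Gria3*, 34 in *Gria4* and 32 in *Gria1*. The genomic codon is printed, and editing of the RNA was not measured in gene counts.

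Across the 5 ages, the question was how the mRNA of the receptor changed as the cortex matured. From E14 to P70 in WT cortex all 9 genes rose (edgeR's quasi-likelihood test, Benjamini-Hochberg adjusted p under 0.05), as did 42.8% of all tested genes. The rise was largest for *Cacng3*, by 4.61 as log2 fold change (standard error, SE, 0.21, adjusted p = 3.41e-24), and *Gria3* followed with 2.99 (SE 0.091, adjusted p = 8.04e-31). *Cacng2*, *Cnih3*, *Gria1*, *Cacng8* and *Gria4* rose by log2 fold changes between 1.73 and 2.14. The 2 smallest rises were those of *Gria2*, by 0.53 (SE 0.092, adjusted p = 1.36e-06), and *Cnih2*, by 0.22 (SE 0.081, adjusted p = 0.0111). The call for *Cnih2* was lost without WT replicate 5 at E14, where its log2 fold change was 0.15 (adjusted p = 0.0739), and was also lost when libraries were scaled by their totals alone (0.11, adjusted p = 0.104) or when RNA integrity was a covariate (0.15, adjusted p = 0.116). In bulk tissue, fewer cells of a type and less RNA per cell cannot be told apart, and the summed level of the excitatory neuron markers ran from 1276 to 1864 CPM at E14 and from 2051 to 2484 CPM at P70 in WT, while that of 8 cortical progenitor markers ran from 1729.6 to 2488 CPM and from 108 to 151 CPM. Of the 7 excitatory neuron markers 1 rose and 6 fell (median −1.33), all 8 progenitor markers fell (median −4.29), and all 6 astrocyte markers (median 2.48) and 6 of 7 oligodendrocyte lineage markers (median 1.84) rose over the same ages. All 6 striatal neuron markers (median 2.74) and all 5 microglial markers (median 3.12) rose too, the summed striatal level running from 67.2 to 124 CPM at E14 and from 307 to 1087 CPM at P70. The summed level of 8 interneuron markers in WT ran from 849 to 1580 CPM at E14, from 537 to 747 CPM at P7 and from 874 to 1176 CPM at P70. The part of all these markers in the changes was not tested.

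**Figure D1:**
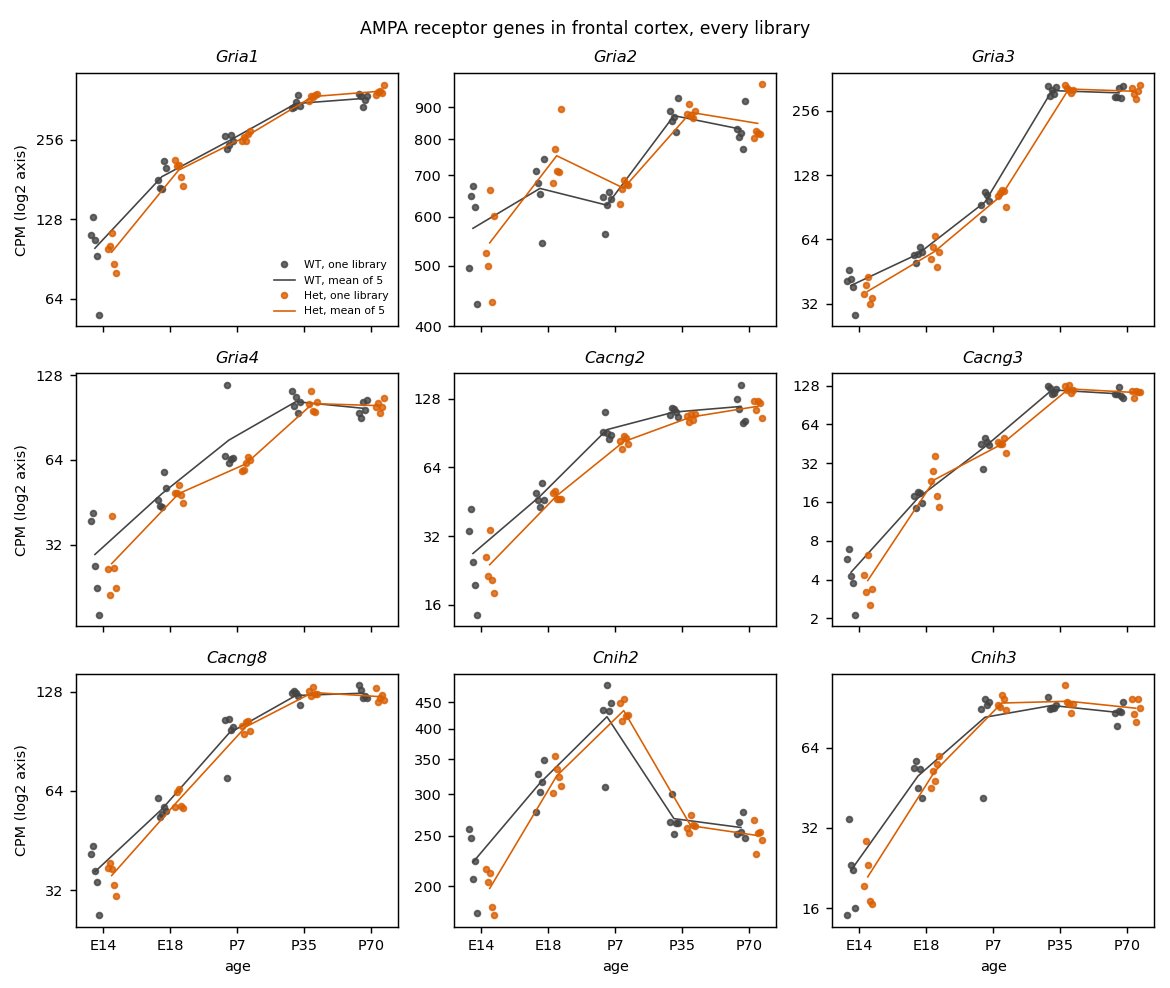
CPM (log2 axis) of the 9 genes in every library at E14, E18, P7, P35 and P70, with WT in grey, Het in orange and lines joining the means of 5 libraries. The points of both genotypes overlap at every age, most genes climb until P35, *Gria2* climbs least among the subunits, *Cnih2* peaks at P7, and WT replicate 2 at P7 lies off its group for *Gria4* and *Cnih3*.

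The timing differed among the 9 genes. From E14 to E18 in WT all 9 rose, beside 31.8% of all tested genes, and in Het all 9 rose, beside 32.0%. From E18 to P7, 8 of 9 rose in WT (33.9% of all genes) and the same 8 in Het (32.7%), the exception in both being *Gria2*. From P7 to P35 in WT, 6 of 9 rose (32.6% of all genes) and 1, *Cnih2*, fell (34.3% of all genes fell), while *Cacng2* and *Cnih3* did not pass the test. In Het, the step from P7 to P35 gave 7 rises (34.5% of all genes), now with *Cacng2*, and the fall of *Cnih2* (33.3% of all genes fell). Over this step in WT the median summed level of excitatory neuron markers went from 1542 to 2325 CPM. That sum can rise while most of its markers fall, as it did from E14 to P70. The directions of single markers over the step from P7 to P35 are not reported here. The median summed level of oligodendrocyte lineage markers went from 493 to 4441 CPM, of striatal neuron markers from 125 to 704 CPM and of progenitor markers from 262 to 140 CPM. The part of these markers in the changes over this step was not tested. From P35 to P70 none of the 9 was called, where 1.06% of all genes were called in WT and 2.98% in Het. The 95% interval over that step ran from −0.14 to 0.45 for *Cacng2* in Het and from −0.45 to 0.25 for *Cacng3* in WT. None of the 9 had an unadjusted p under 0.05 for that last step in WT or Het by edgeR, and 0 were called by limma-voom or DESeq2.

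**Figure D2:**
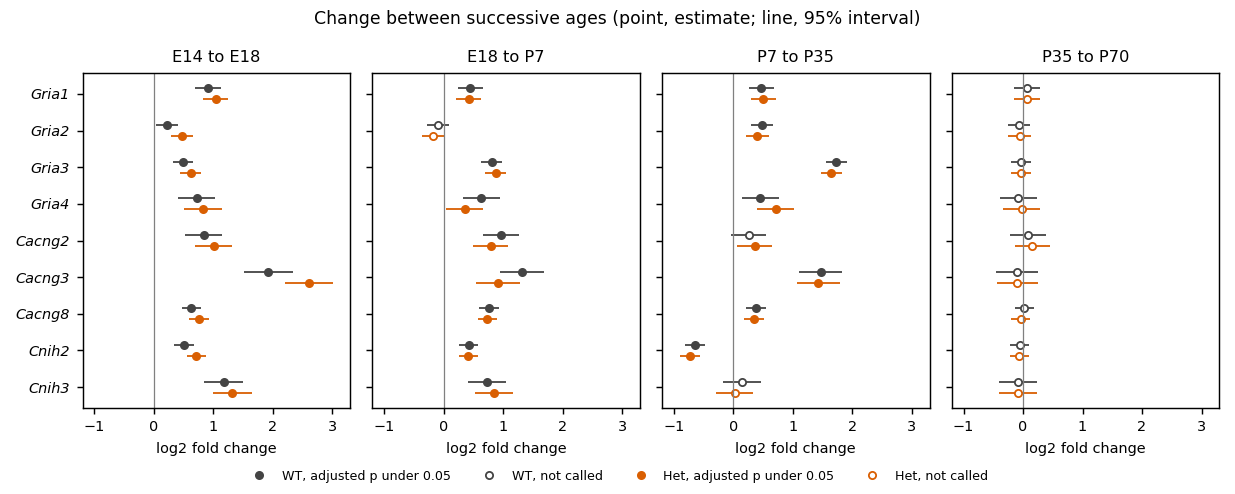
Log2 fold change between successive ages for the 9 genes, with WT in grey, Het in orange, 95% intervals as lines and filled points where the adjusted p was under 0.05. *Cacng3* shows the largest rise from E14 to E18, *Gria3* the largest from P7 to P35 in WT, *Cnih2* the only fall, and all points from P35 to P70 lie near 0 with intervals that cross it.

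Among the pore-forming subunits, *Gria1* (ENSMUSG00000020524, chromosome 11 from 57011387 to 57330244 on the plus strand) encodes a subunit whose traffic to the membrane is regulated in synaptic plasticity. Its level in WT replicates 1 to 5 was 111, 130.3, 106, 93.1 and 55.6 CPM at E14, 180.1, 168, 167, 214 and 200.3 CPM at E18 and 266, 238, 245, 268 and 254 CPM at P7. At P35 it was 338, 341, 357, 380.2 and 344 CPM and at P70 383, 375, 342, 363 and 377 CPM. Each age up to P35 lay wholly above the one before, whereas the ranges at P35 and P70 overlapped. The steps had log2 fold changes of 0.90 (SE 0.11, adjusted p = 8.86e-10), 0.45 (0.11, adjusted p = 0.000248) and 0.47 (0.11, adjusted p = 0.000142) by edgeR. Het libraries ran from 79.8 to 113 CPM at E14 and from 379 to 415 CPM at P70. WT replicate 5 at E14, with 55.6 CPM, was the lowest of the 10 libraries of its age.

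*Gria2* (ENSMUSG00000033981, chromosome 3 from 80681450 to 80802835 on the minus strand) encodes the subunit whose edited pore blocks calcium. WT replicates 1 to 5 held 496, 649, 673, 622 and 434 CPM at E14 and 712, 680.2, 652, 545 and 743 CPM at E18. At P7 they held 645, 563, 626, 657 and 639.6 CPM, at P35 886, 855, 867, 822 and 932 CPM and at P70 829, 807, 819, 771 and 922 CPM. The range at E18 overlapped those at E14 and P7, and P35 lay above P7. The rise from E14 to E18 was 0.21 in WT (SE 0.092, adjusted p = 0.0397, edgeR) and 0.47 in Het (SE 0.092, adjusted p = 2.52e-05), and the WT call was lost when any of WT replicates 1 and 5 at E14 or 1, 2, 3 and 5 at E18 was left out, with log2 fold changes of 0.13 to 0.22, and when both libraries with *Xist* counts were left out (0.12, adjusted p = 0.274). The difference from E18 to P7 was −0.09 in WT (adjusted p = 0.398) and −0.17 in Het (adjusted p = 0.0925), and neither passed. *Gria2* then rose from P7 to P35 by 0.48 in WT (SE 0.092, adjusted p = 1.47e-05).

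*Gria3* (ENSMUSG00000001986, chromosome X from 41400854 to 41678601 on the plus strand) is the X-linked subunit gene. Its level in WT replicates 1 to 5 was 40.8, 45.9, 41.6, 38.2 and 28.5 CPM at E14, 54.3, 49.6, 54.8, 59.1 and 56.0 CPM at E18 and 92.7, 79.4, 107, 103 and 96.9 CPM at P7. It then stood at 333, 301, 319, 307 and 329 CPM at P35 and 297, 297, 328, 294 and 335 CPM at P70. The lowest library at P35 lay far above the highest at P7, and the ranges at P35 and P70 overlapped. The step from P7 to P35 was the largest of *Gria3*, at 1.73 on the log2 scale (SE 0.087, adjusted p = 7.31e-22, edgeR) in WT and 1.65 (SE 0.087, adjusted p = 3.37e-21) in Het. The earlier steps in WT were 0.49 and 0.81. The 2 libraries with *Xist* counts held 28.5 CPM at E14 and 49.6 CPM at E18, the lowest WT values of *Gria3* at those ages, and without them the step from E14 to E18 was 0.43 (adjusted p = 1.93e-05).

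*Gria4* (ENSMUSG00000025892, chromosome 9 from 4417896 to 4796234 on the minus strand) encodes a subunit that interneurons are known to use heavily. WT replicates 1 to 5 held 38.8, 41.4, 26.9, 22.5 and 18.01 CPM at E14, 46.3, 43.8, 43.5, 58.1 and 50.9 CPM at E18 and 66.3, 118, 62.2, 64.4 and 65.1 CPM at P7. The values at P35 were 112, 99.6, 107, 93.8 and 103 CPM and at P70 93.9, 90.4, 103, 96.4 and 104 CPM. Replicate 2 at P7 was the highest WT library at any age and lay above the 4 others at P7, which spanned 62.2 to 66.3 CPM. With that library the step from P7 to P35 was 0.45 (SE 0.15, adjusted p = 0.00844, edgeR) and without it 0.68 (adjusted p = 4.98e-05). In Het, where no library stood apart at P7, the same step was 0.71 (SE 0.15, adjusted p = 7.58e-05). The rise of *Gria4* from E18 to P7 in Het, 0.35 (adjusted p = 0.0415), lost its call when any of Het replicates 1, 2, 4 and 5 at E18 or 2, 3, 4 and 5 at P7 was left out, with log2 fold changes of 0.32 to 0.36. The same call was also lost under an alternative that left out no single library.

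The TARP genes rose at each step up to P7, and their steepest member was *Cacng3* (ENSMUSG00000066189, chromosome 7 from 122670492 to 122769393 on the plus strand), which encodes the TARP gamma-3. WT replicates 1 to 5 held 5.73, 6.89, 4.23, 3.79 and 2.13 CPM at E14 and 17.8, 14.4, 19.2, 18.7 and 15.6 CPM at E18. At P7 they held 44.7, 28.8, 50.4, 46.6 and 44.2 CPM, at P35 127, 123, 110.5, 112 and 120.5 CPM and at P70 109.8, 111, 124, 106 and 101.7 CPM. Each age up to P35 lay above the one before, and the gene was the lowest of the 9 per base of exon at E14 and stood in place 5 at P70. Its steps in WT had log2 fold changes of 1.92 (SE 0.20), 1.32 (0.18) and 1.47 (0.18), with adjusted p of 3.82e-11, 2.28e-08 and 1.05e-09 by edgeR. In Het, the values were 4.37, 3.21, 6.17, 2.53 and 3.36 CPM at E14 and 23.1, 27.9, 36.03, 17.7 and 14.7 CPM at E18, and the step between them was 2.61 (SE 0.20, adjusted p = 9.44e-15).

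*Cacng8* (ENSMUSG00000053395, chromosome 7 from 3390683 to 3415648 on the plus strand), the gene of the TARP gamma-8 and known for its part in the forebrain, held 41.1, 43.5, 36.6, 33.9 and 26.9 CPM in WT replicates 1 to 5 at E14 and 105, 69.96, 105, 98.1 and 99.8 CPM at P7. It held 127, 128, 127, 124 and 117 CPM at P35 and ran from 122 to 134 CPM at P70. It rose by 0.63, 0.76 and 0.38 over the steps to P35, each with a SE of 0.081 or 0.082 and an adjusted p of at most 6.02e-05 (edgeR). *Cacng2* (ENSMUSG00000019146, chromosome 15 from 77991748 to 78120028 on the minus strand), the gene of stargazin, held 33.5, 41.9, 24.7, 19.6 and 14.4 CPM at E14 and 91.9, 113, 90.2, 85.03 and 89.2 CPM at P7 in WT, and ran from 107 to 117 CPM at P35. Up to P7 it rose in both steps of 0.84 (adjusted p = 6.17e-06) and 0.97 (adjusted p = 2.41e-07). From P7 to P35 *Cacng2* differed by 0.26 in WT (adjusted p = 0.124) and rose by 0.36 in Het (adjusted p = 0.0302). The call in Het was lost without Het replicate 2 or 5 at P7 or 5 at P35. It was also lost under an alternative that left out no single library. The joint interaction test of age and genotype gave *Cacng2* an unadjusted p of 0.849. Of the exonic bases of *Cacng2*, 5.9% overlap the antisense gene *A730060N03Rik*, and unstranded counting cannot separate the 2 there.

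The cornichon genes followed different courses after P7, and the part of their promoter sequences in these courses was not tested. The 250 bases upstream of their RefSeq starts (GRCm38.p6) are shown, with the GC box GGGCGG or its complement CCGCCC in capitals.
Cnih2: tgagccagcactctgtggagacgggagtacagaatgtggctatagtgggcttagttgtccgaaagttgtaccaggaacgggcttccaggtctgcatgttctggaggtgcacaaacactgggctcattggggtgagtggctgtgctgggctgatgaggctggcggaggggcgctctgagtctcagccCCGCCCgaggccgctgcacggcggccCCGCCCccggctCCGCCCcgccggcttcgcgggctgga
Cnih3: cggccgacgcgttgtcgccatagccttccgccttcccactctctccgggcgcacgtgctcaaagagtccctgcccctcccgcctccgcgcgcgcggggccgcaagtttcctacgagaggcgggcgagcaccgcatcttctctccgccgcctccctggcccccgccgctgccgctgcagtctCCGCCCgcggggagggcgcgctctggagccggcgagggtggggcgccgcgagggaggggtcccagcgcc
They lie at chr19:5098522-5098771 (minus strand) and chr1:181352378-181352627 (plus strand) and are written 5′ to 3′ toward the gene. In these 250 bases, on both strands, *Cnih2* had 3 GC boxes and 17 CpG dinucleotides and *Cnih3* had 1 and 36, against a median of 6 CpG and a share of 32.7% with GGGCGG among 32851 promoters of the same length. *Cnih3* also held the E-box CACGTG, which 6.02% of promoters hold. Promoters were found for 7 of the 9 genes, and for *Cacng2*, *Cacng3* and *Cacng8* the RefSeq start lay inside the gene as annotated in GENCODE, so their windows were set aside. Of the 4 genes whose starts matched, *Gria2* and *Gria4* held no GGGCGG, and none of the 4 held TATAAA (12.4% of promoters) or TGACGTCA (1.55%).

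*Cnih2* (ENSMUSG00000024873, chromosome 19 from 5092868 to 5098521 on the minus strand) was the only member that fell at any step. WT replicates 1 to 5 held 257, 247, 206.5, 223 and 178 CPM at E14 and 278, 329, 303, 317 and 349.7 CPM at E18. At P7 they held 434, 310.1, 485, 433 and 448 CPM, at P35 266, 301, 251, 265 and 264 CPM and at P70 252, 266, 254, 277 and 247 CPM. At P7 every library lay above every library of P35 and P70, while replicate 2 at P7 lay among the E18 values. The steps were 0.50 (SE 0.081, adjusted p = 6.81e-07), 0.42 (0.081, adjusted p = 1.33e-05) and, from P7 to P35, −0.65 (0.081, adjusted p = 2.02e-09, edgeR). Het showed the same order, with 302 to 355 CPM at E18, 415 to 457 CPM at P7 and 253 to 273 CPM at P35, and the level fell by 0.73 on the log2 scale from P7 to P35 (adjusted p = 8.78e-11).

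*Cnih3* (ENSMUSG00000026514, chromosome 1 from 181352628 to 181460641 on the plus strand) held 15.1, 34.4, 23.1, 22.2 and 15.98 CPM in WT replicates 1 to 5 at E14, 53.5, 57.0, 44.99, 53.4 and 41.5 CPM at E18 and 89.6, 41.5, 97.2, 92.7 and 94.9 CPM at P7. It then ran from 89.1 to 99.0 CPM at P35 and from 76.8 to 94.8 CPM at P70. Apart from replicate 2, the P7 libraries already lay in the range of P35. *Cnih3* rose by 1.18 (SE 0.16, adjusted p = 3.07e-08) and 0.73 (0.16, adjusted p = 8.38e-05), and its difference from P7 to P35 was 0.15 (adjusted p = 0.415, edgeR), or −0.023 without WT replicate 2 at P7 (adjusted p = 0.891). In Het the difference over that step was 0.023 (adjusted p = 0.908).

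Levels of different genes can be compared only per length, and for this RPKM (fragments divided by the length of the exons in kilobases and by the library total times its TMM factor) were computed from the counts. Over all annotated exonic bases, *Cnih2* was the highest of the 9 in every group, at 162.5 ± 23.3 RPKM (SD, n = 5) at E14 and 189 ± 8.87 RPKM at P70 in WT. *Gria2* followed at E14 with 36.97 ± 6.72 RPKM, above *Gria1* with 16.4 ± 4.61 RPKM and *Cacng8* with 15.5 ± 2.77 RPKM, whose ranges overlapped each other. *Cacng3*, with 1.64 ± 0.66 RPKM, was the lowest and did not overlap the next gene up, *Gria3*, with 3.96 ± 0.66 RPKM. By P70 the order in WT was *Cnih2*, then *Gria1* (60.9 ± 2.70), *Cacng8* (54.0 ± 2.14) and *Gria2* (53.4 ± 3.61 RPKM), neighbours whose ranges overlapped. Below them stood *Cacng3* (39.7 ± 3.03), then *Cnih3* (31.5 ± 2.34) and *Gria3* (31.5 ± 1.97), which overlapped, then *Cacng2* (21.5 ± 3.51) and *Gria4* (15.5 ± 0.95 RPKM). Part of this order rests on the length. The exons annotated for *Gria2* sum to 15548 bases and its longest coding transcript has 10371, and with the length of that transcript in place of all exons *Gria2* stood above *Gria1* and *Cacng8* at P70, with 80.0 ± 5.41 against 66.4 ± 2.95 and 66.7 ± 2.65 RPKM, and *Gria3* stood at 59.7 ± 3.75 RPKM.

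The make-up of the subunit pool shifted over development. *Gria2* made up 60.0% ± 5.38 (SD, n = 5) of the summed RPKM of *Gria1* to *Gria4* at E14 in WT, 38.7% ± 1.88 at P7 and 33.1% ± 0.87 at P70, a difference of −26.9 percentage points between E14 and P70. *Gria1* went from 26.1% ± 3.56 at E14 to 40.4% ± 1.30 at P7 and 37.8% ± 1.74 at P70. *Gria3* made up 6.41% ± 0.35 at E14, 9.35% ± 1.04 at P7 and 19.5% ± 0.88 at P70, and *Gria4* 7.49% ± 1.92 at E14 and 9.61% ± 0.5 at P70. With transcript lengths *Gria2* made up 64.5% ± 4.90 at E14 and 35.7% ± 0.81 at P70, and *Gria3* 26.7% ± 1.03 at P70, so the size of a share depended on the length while the direction did not. In Het, *Gria2* made up 59.3% ± 3.70 at E14 and 32.6% ± 1.13 at P70. The shares are descriptions, with no test, and a lower share of *Gria2* stood beside a higher level of its own mRNA.

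Within the TARPs the shares of *Cacng8* and *Cacng3* drew closer together. *Cacng8* made up 71.4% ± 4.96 (SD, n = 5) of the summed RPKM of the 3 genes at E14 in WT and 46.9% ± 2.66 at P70, *Cacng3* 7.19% ± 1.33 and 34.5% ± 1.14, and *Cacng2* 21.4% ± 3.74 and 18.6% ± 1.96. Of the 2 cornichon genes described here, *Cnih2* made up 95.3% ± 1.34 of the summed RPKM at E14 and 85.7% ± 1.30 at P70. The summed RPKM of the subunits was 62.0 ± 12.1 at E14 and 161 ± 6.64 at P70 in WT, that of the TARPs 22.0 ± 5.37 and 115 ± 6.81, and that of the cornichons 171 ± 24.3 and 221 ± 7.96, with 339 ± 56.6 at P7 (SD, n = 5 each). The summed level of the genes described here was thus higher at P70 than at E14 in all 3 classes, and that of the cornichon genes was highest at P7. Other TARP and cornichon genes, among them the TARP gene *Cacng4* taken up below, were not in these sums or shares.

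**Figure D3:**
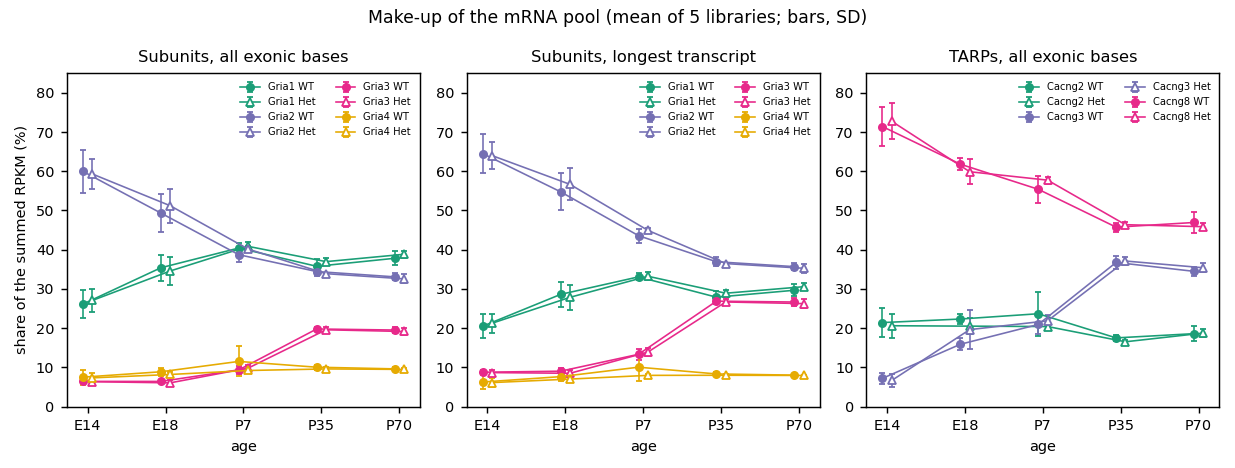
Share (%) of each gene in the summed RPKM of the described genes of its class by age, as means of 5 libraries with SD. Filled circles are WT and open triangles Het, for the subunits by all exonic bases and by the longest coding transcript and for the TARPs by all exonic bases. The share of *Gria2* declines from 60.0% to 33.1% in WT by exonic bases, that of *Gria3* climbs after P7 and that of *Cacng3* climbs up to P35, in both genotypes.

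Other genes of the AMPA receptor pathway were counted from lists chosen with earlier results of these data known. Of 17 further auxiliary or extracellular partners, 15 rose from E14 to P70 in WT and 2 fell, where 42.8% of all tested genes rose and 42.9% fell. The largest rises were those of *Nptxr*, the neuronal pentraxin receptor, at 4.21 and *Olfm3* at 4.16, and the falls were those of *Cacng4*, the TARP gamma-4 gene, at −2.18 and *Shisa6* at −0.49 (log2 fold changes), with a list median of 2.42 against −0.002 over all tested genes and 1.89 over the 9 members. All 6 biogenesis factors rose, led by *Frrs1l* at 2.89, whose product acts on the receptor in the endoplasmic reticulum, and *Abhd12* at 2.57 (list median 1.49). Of 14 trafficking and anchoring genes, 11 rose, led by *Arc*, an immediate early gene, at 6.05 and the kinase gene *Camk2a* at 5.84, and *Grip1* and *Pick1*, scaffolds that bind the tail of AMPA receptor subunits, fell by 1.18 and 0.23 (list median 2.15). Of the 3 RNA editing genes, *Adarb1* rose by 2.62 and *Adar* by 0.61, and *Adarb2* differed by −0.18 without passing. Of 7 kainate and delta receptor genes, 4 rose, among them *Grid1* at 2.21, 1 fell, *Grik3* at −0.69, and 2 did not pass. *Cacng4* thus fell where the 3 TARP genes described above rose.

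The genes most alike in pattern were found by Pearson's r of log2 CPM over the 50 libraries, which share the course with age and are therefore given as a description. Closest to *Gria3* were *Fbxl16* (0.996), *Abhd12* (0.996) and *Ppp3r1* (0.996). Closest to *Cacng3* were *Rims1* (0.995), *Prkar1b* (0.993) and *C1qtnf4* (0.991), and among those closest to *Cacng8* were *Fbxo31* (0.995) and *Speg* (0.995). *Gria1* was closest to *Epb41l1* (0.988), *Scamp1* (0.988) and *Ntrk2* (0.988). The highest r for *Gria2* was lower, with *Osbpl6* (0.892), *Abr* (0.889) and *Rbfox1* (0.885), and for *Cnih2* the list was *Jazf1* (0.971), *Mapre2* (0.967) and *Map9* (0.959). Among the members themselves, r was highest between *Gria1* and *Cacng3*, at 0.986, and lowest between *Gria3* and *Cnih2*, at 0.035. When each library was expressed as its deviation from the mean of its age and genotype, which removes both, the genes closest to *Cacng2* were *Sez6l2* (0.9), *Disp2* (0.892) and *Dnm1* (0.885), to *Cacng8* *Agap2* (0.913), *Map3k10* (0.901) and *Cdk5r2* (0.891) and to *Cnih3* *Hs3st2* (0.879), *Fam49a* (0.878) and *Mef2c* (0.866), over the same 50 libraries. Without WT replicate 2 at P7 these were *Gpr162* (0.927), *Dnm1* (0.91) and *Epb41l1* (0.907) for *Cacng2*, *Agap2* (0.892), *Nrxn2* (0.882) and *Map3k10* (0.877) for *Cacng8* and *Sh3gl2* (0.853), *Hs3st2* (0.83) and *Rabgap1l* (0.828) for *Cnih3*. Among members, r of these deviations was 0.798 for *Gria4* with *Cacng2* and for *Gria3* with *Cacng3*, and −0.135 for *Gria4* with *Cnih3*, which became 0.152 without WT replicate 2 at P7.

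Between genotypes, the question was whether loss of a *Setd1a* allele altered these genes. With age as a covariate, none of the 9 was called, where 4.43% of all tested genes were (edgeR), and 0 of the 9 had an unadjusted p under 0.05. The log2 fold changes of Het over WT were 0.053 for *Gria1*, 0.047 for *Gria2*, 0.022 for *Gria3* and −0.076 for *Gria4*. For the TARPs they were −0.079 for *Cacng2*, 0.093 for *Cacng3* and 0.023 for *Cacng8*, and for the cornichons −0.035 for *Cnih2* and 0.054 for *Cnih3*. When 1 library at a time was left out, they spanned 0.028 to 0.078 for *Gria1*, 0.033 to 0.063 for *Gria2*, 0.0078 to 0.037 for *Gria3*, −0.11 to −0.03 for *Gria4*, −0.11 to −0.039 for *Cacng2*, 0.05 to 0.13 for *Cacng3*, 0.0047 to 0.038 for *Cacng8*, −0.054 to −0.022 for *Cnih2* and 0.02 to 0.095 for *Cnih3*. WT replicate 2 at P7 gave the value nearest 0 for *Gria4*, *Cacng8* and *Cnih3* when left out, and WT replicate 2 at E14 gave that nearest 0 for *Cacng2*. Without the 2 libraries with *Xist* counts the estimates were 0.02 for *Gria1*, 0.031 for *Gria2*, 0.00013 for *Gria3*, 0.052 for *Cacng3* and 0.0018 for *Cacng8*. With all libraries, adjusted p lay between 0.664 and 0.877. The 95% intervals bound what these libraries leave possible. They were −0.039 to 0.15 for *Gria1*, −0.036 to 0.13 for *Gria2*, −0.053 to 0.097 for *Gria3*, −0.049 to 0.094 for *Cacng8* and −0.11 to 0.038 for *Cnih2*, and wider for *Gria4* (−0.21 to 0.061), *Cacng2* (−0.21 to 0.051), *Cnih3* (−0.084 to 0.19) and *Cacng3* (−0.077 to 0.26). DESeq2, limma-voom, the other alternatives and the omission of each library in turn also called 0 of the 9.

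At single ages none of the 9 was called either, while of all tested genes 0.129%, 0.110%, 0.735%, 0% and 0.233% were called, in order of age. The ranges of WT and Het overlapped for all 9 genes at all 5 ages, whereas 0.784%, 2.22%, 2.23%, 2.25% and 1.79% of all tested genes, again in order of age, had ranges that did not overlap. Unadjusted p under 0.05 occurred for *Cnih2* at E14 and *Cacng3* at E18. *Cnih2* at E14 was at 257, 247, 206.5, 223 and 178 CPM in WT and 216, 203.8, 212, 183 and 176 CPM in Het (log2 fold change −0.17, 95% interval −0.33 to −0.0032, adjusted p = 0.414). The other estimates at E14 ran from −0.21 for *Cacng3* to −0.037 for *Cacng8*, and their size and in part their sign rested on single libraries. When 1 library at a time was left out, the estimates at E14 spanned −0.20 to 0.068 for *Gria1*, −0.16 to −0.0085 for *Gria2*, −0.18 to −0.024 for *Gria3*, −0.29 to 0.047 for *Gria4*, −0.32 to 0.057 for *Cacng2*, −0.43 to −0.0061 for *Cacng3*, −0.13 to 0.035 for *Cacng8*, −0.24 to −0.11 for *Cnih2* and −0.22 to 0.13 for *Cnih3*, and without WT replicate 2 at E14 those of *Gria1*, *Gria4*, *Cacng2*, *Cacng8* and *Cnih3* were above 0. Without the libraries with *Xist* counts, of which WT replicate 5 is at E14, the adjusted p ran from 0.0659 for *Cnih2* (−0.24) to 0.58 for *Cnih3* (−0.18). *Cacng3* at E18 was at 17.8, 14.4, 19.2, 18.7 and 15.6 CPM in WT, and Het replicates 1 to 3, of 23.1, 27.9, 36.03, 17.7 and 14.7 CPM in replicates 1 to 5, lay above all of these while replicates 4 and 5 lay within their range (log2 fold change 0.47, 95% interval 0.11 to 0.84, adjusted p = 0.29). The difference was 0.28 without Het replicate 3 and 0.61 without Het replicate 5 at E18, the limits over the omission of each library. With the RNA integrity number as a covariate, the difference of *Cacng3* at E18 was 0.27 (adjusted p = 0.921). The summed level of the 8 progenitor markers ran from 693 to 780.4 CPM in WT and from 556 to 740.3 CPM in Het at that age, and its part in the result was not tested. The joint test of the 4 interaction terms of age and genotype called none of the 9 and 0% of all genes, with the lowest unadjusted p among the 9, 0.18, at *Cacng3*. DESeq2 and limma-voom called 0 of the 9 for the interaction as well.

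**Figure D4:**
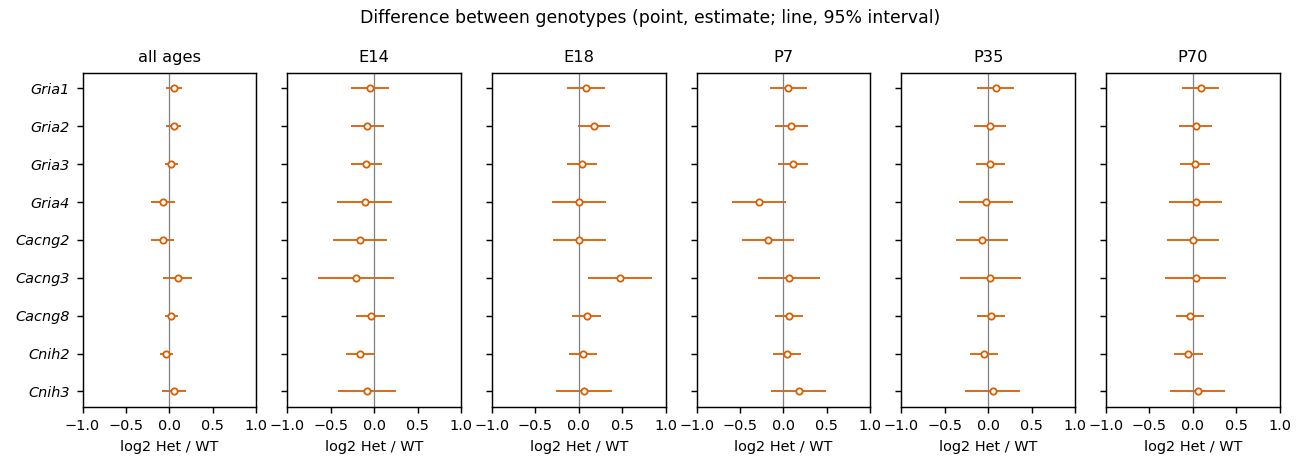
Log2 fold change of Het over WT for the 9 genes with all ages together (age as covariate) and at each age, as estimates with 95% intervals. The intervals cross 0 in all panels except those of *Cnih2* at E14 and *Cacng3* at E18, and no adjusted p was under 0.05.

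Of the other pathway genes, 3 were called by genotype with age as covariate, all lower in Het. They were *Pick1* (log2 fold change −0.098, SE 0.02, adjusted p = 0.00107, edgeR), *Cpt1c*, which encodes a partner of the receptor in the endoplasmic reticulum (−0.098, SE 0.025, adjusted p = 0.0114), and *Prrt1*, which encodes an auxiliary protein of the receptor (−0.24, SE 0.069, adjusted p = 0.0296). These were 1 of 14 trafficking, 1 of 6 biogenesis and 1 of 17 auxiliary genes, and 0 of 3 editing and 0 of 7 kainate and delta genes were called, where 4.43% of all tested genes were, 612 of the 723 of them lower in Het. *Pick1* and *Cpt1c* kept their calls under all 10 other ways of fitting and without each library in turn, at the threshold of 0.05. *Prrt1* lost its call with limma-voom (adjusted p = 0.0557) and without Het replicate 4 at E14 or WT replicate 3 at P7, where its adjusted p was at most 0.0507.

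WT replicate 2 at P7 bears on several of these values. Against the 4 other WT libraries of its age it was higher for *Gria4* (118 against 62.2 to 66.3 CPM) and *Cacng2* (113 against 85.03 to 91.9 CPM). It was lower for *Cnih3* (41.5 against 89.6 to 97.2 CPM), *Cacng3* (28.8 against 44.2 to 50.4 CPM), *Cacng8* (69.96 against 98.1 to 105 CPM) and *Cnih2* (310.1 against 433 to 485 CPM). It was also the lowest for *Gria1*, *Gria2* and *Gria3*, by at most 0.33 on the log2 scale below the mean of the others. In the same library the summed level of 7 excitatory neuron markers was 960.1 CPM against 1536 to 1661 CPM in the others, that of 7 oligodendrocyte lineage markers 1463 against 461 to 508 CPM, that of 6 astrocyte markers 1571 against 934 to 1059 CPM and that of 4 choroid plexus markers 610.1 against 1.83 to 2.48 CPM. Progenitor markers stood at 553 against 225 to 289 CPM, microglial markers at 93.6 against 89.0 to 101 CPM and the 5 hindbrain *Hox* genes at 7.95 against 0 to 0.19 CPM. The 8 interneuron markers summed to 537 against 557 to 747 CPM and the 6 striatal neuron markers to 83.6 against 111 to 277 CPM, the lowest of the 5 WT libraries for both. Their part in the values of the 9 genes was not tested. Without this library the difference between genotypes at P7 was −0.059 for *Gria4* in place of −0.28 and 0.0067 for *Cnih3* in place of 0.18, and neither passed with or without it.

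**Figure D5:**
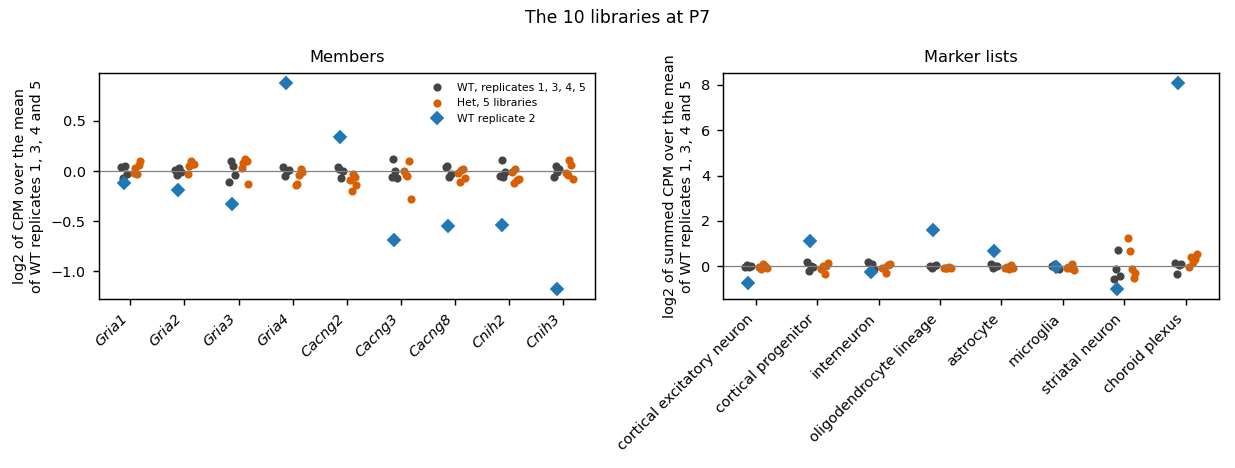
The 10 libraries at P7 as the log2 ratio to the mean of WT replicates 1, 3, 4 and 5, for the 9 genes (CPM) and for 8 marker lists (summed CPM), with WT replicate 2 as a blue diamond, the other WT libraries in grey and Het in orange. The diamond lies above the other libraries for *Gria4* and *Cacng2* and for oligodendrocyte, astrocyte, progenitor and choroid plexus markers, and below them for *Cnih3*, *Cacng3*, *Cacng8* and *Cnih2* and for excitatory neuron markers.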

How the data were processed

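RNA sequencing counts were taken from 50 frontal cortex libraries, 5 per genotype at each of 5 ages, with groups taken from the sample labels. Per the methods of the study, the authors captured poly-A RNA, sequenced all libraries in 1 batch, trimmed reads with Trimmomatic, aligned them to GRCm38 with STAR and counted fragments per gene with featureCounts. The version, 1.4.6-p2, is given in the deposited files. The deposited counts are whole numbers and not normalised, and they are unstranded, with a fragment over exons of several genes counted for each of them. Gene symbols came from the GENCODE vM21 annotation and promoter sequences from RefSeq.

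Protein-coding genes that passed edgeR's filter (a count minimum of 10, group size 5) were scaled by TMM and tested with the quasi-likelihood test of edgeR 4.0.16 in R 4.3.3. The genotype effect with age as a covariate came from 1 fit of age and genotype over all 50 libraries. All other tests came from 1 fit of the 10 groups of age and genotype over the same libraries. Benjamini-Hochberg adjustment was over the 16330 genes, with a threshold of 0.05. RPKM used the exonic length given in the files. Log2 CPM for likeness used a prior count of 2. DESeq2 1.42.0, limma-voom (limma 3.58.1), other scalings, other filters, RNA integrity from the study's sample metadata as a covariate, a replicate block and the omission of each library were alternatives. The change from E14 to P70 and the transcript-length shares were added after seeing the data. The tests were first tested on simulated data. The members and lists were chosen with earlier results of these data known. All 9 members were named, and of the other lists those genes called by genotype, the 2 largest rises and the 2 largest falls from E14 to P70 per list, and the 3 genes most alike to each member, of which some are not reported here. Proteomic data were not analysed here.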

Additional observations from a re-analysis of the deposited data

Results flagged for a closer look

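In 8 of the 90 sets of 5 libraries (9 genes in 10 groups), the highest or lowest library was separated from its nearest neighbour by more than 0.71 of the range of the set, a gap that chance alone gives in about 1 in 20 sets. Of these, 5 were in WT replicate 2 at P7, where *Gria4* stood at 118 CPM and *Cacng2* at 113 CPM, the highest of their group, and *Cacng3* at 28.8 CPM, *Cacng8* at 69.96 CPM and *Cnih3* at 41.5 CPM, the lowest. The other 3 were *Gria4* at 40.6 CPM in Het replicate 3 at E14, the highest of its group, *Gria2* at 980.0 CPM in Het replicate 5 at P70, also the highest, and *Cacng3* at 102.2 CPM in Het replicate 2 at P70, the lowest.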

How the results depend on the processing

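For the 9 genes, 1472 of 1485 values under alternatives that left out no single library kept their side of the threshold, as did 6732 of 6750 values when 1 library at a time was left out. No called value changed sign, while values that had not passed the test changed sign in 13 and 70 cases. The calls lost or gained all concerned *Gria2* from E14 to E18 in WT, *Gria4* from E18 to P7 in Het, *Cacng2* from P7 to P35 in Het, *Cnih2* from E14 to P70 in WT and *Gria2* from E18 to P7 in Het, which was called when libraries were scaled by their totals alone (log2 fold change −0.22, adjusted p = 0.0253). That scaling moved the median change of all genes from E18 to P7 in Het by −0.0435, and that from E14 to P70 in WT by −0.11. At an adjusted p under 0.01 the first 4 of these were not called either. The share of *Gria3* moved by 13.1 percentage points from E14 to P70 in WT by exonic RPKM, by 14.04 by CPM and by 17.9 by transcript length. Whether the replicate numbers pair the samples was not tested against chance. WT and Het libraries of the same age and number had r over 0.1 in 9 of 25 pairs, from −0.20 to 0.46. Of the 50 libraries, 17 were closest to their own number. A fit with the replicate number as a block called 9, 8, 7 and 0 of the 9 genes over the successive steps in WT. That fit called 9, 8, 8 and 0 in Het, 9 from E14 to P70 and 0 in every genotype test. Of the 9 genes *Cacng3* at E14 had the lowest counts, 90 to 254 per library in WT and 100 to 238 in Het. Counting error was not compared with the spread between libraries.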
